A study of Mus musculus with 32 samples.

Results

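Ptgs2 encodes cyclooxygenase-2, the inducible enzyme that commits arachidonic acid to prostaglandin synthesis. It is described here with 7 other genes of the same route, and the 8 genes are taken from 54146 gene identifiers in a table of RNA-seq read counts. The set was named for the pathway and was chosen because Ptgs2 differed by over 2-fold between drug-treated and vehicle hippocampus. The 7 other members are Ptgs1 (cyclooxygenase-1), the prostaglandin E synthases Ptges, Ptges2 and Ptges3, the prostaglandin D synthase Ptgds, the cytosolic phospholipase A2 gene Pla2g4a and the prostaglandin E2 receptor gene Ptger4. The drug effect in hippocampus is therefore given below for all 8 as a description, without a test.

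The study asked how CI-994 changes transcription around a learning event. The compound blocks the class I histone deacetylases, enzymes that remove acetyl groups from histones, and is called HDACi below. Male wild-type mice of the C57BL/6J strain, 12 weeks old and with no engineered allele named in the labels, were injected in the abdomen with the drug at 30 mg/kg or with its solvent of dimethyl sulfoxide, Kolliphor and saline (Veh). After 1 hour they were fear-conditioned to the context (CFC, with 2 shocks to the feet at 0.2 mA) or spent as long in the chamber unshocked (Context), and after 1 further hour the tissue was collected. The 8 groups were HDACi CFC, Veh CFC, HDACi Context and Veh Context in hippocampus and the same 4 in striatum, with 4 libraries in each group. Each library came from 1 hemisphere of 1 mouse, and every group, controls included, had been injected and placed in the chamber. Whole cages shared a behaviour, so cage and behaviour cannot be told apart.

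The lowest and highest library totals were 26026024 and 36670767 counts for hippocampus, and 27418127 and 33635025 for striatum. In a check of the tissue labels, Neurod6, a gene of hippocampal and cortical excitatory neurons, had 170 to 293 CPM (counts per 1000000 counts of the library) in hippocampus and 0.349 to 29.9 in striatum. Drd1, the dopamine receptor gene of striatal projection neurons, had 2.49 to 4.39 CPM in hippocampus and 250 to 398 in striatum. Some libraries stood apart. Replicates 2 and 4 of hippocampus HDACi CFC held 5433 and 5237 CPM of Ttr, the transthyretin gene of the choroid plexus, against at most 355 CPM in every other hippocampus library. In striatum, 5 libraries held 109 to 348 CPM of Slc17a7, the vesicular glutamate transporter gene of cortical and hippocampal excitatory neurons, and the 11 others held 3.42 to 52.9. The 5 were replicates 2 and 4 of HDACi CFC, replicate 3 of Veh CFC and replicates 1 and 4 of Veh Context.

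Prostaglandins are made on demand. Phospholipase A2 enzymes free arachidonic acid from membrane lipids, a cyclooxygenase converts it to prostaglandin H2, and terminal synthases turn that into prostaglandin E2, D2 or other prostanoids that act on G protein-coupled receptors. In forebrain, cyclooxygenase-2 is known as an enzyme of excitatory neurons whose gene responds quickly to synaptic activity, while cyclooxygenase-1 is known from microglia.

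The promoters of the gene with the largest drug difference, Ptgs2, of its constitutive relative Ptgs1, and of Ptges2, which differed in the opposite direction, are shown to compare what stands in front of each. The sequences are RefSeq windows on GRCm38.p6, plus strand, from 200 bases before to 30 bases after the annotated start, at chr1:150099831-150100060 for Ptgs2, chr2:36230226-36230455 for Ptgs1 and chr2:32395690-32395919 for Ptges2. Capitals mark the matches to the motifs searched.

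Ptgs2: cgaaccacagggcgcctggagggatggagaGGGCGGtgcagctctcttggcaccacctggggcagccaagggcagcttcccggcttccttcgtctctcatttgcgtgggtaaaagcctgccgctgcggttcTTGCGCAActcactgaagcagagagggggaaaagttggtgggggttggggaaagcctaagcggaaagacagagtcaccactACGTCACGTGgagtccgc

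Ptgs1: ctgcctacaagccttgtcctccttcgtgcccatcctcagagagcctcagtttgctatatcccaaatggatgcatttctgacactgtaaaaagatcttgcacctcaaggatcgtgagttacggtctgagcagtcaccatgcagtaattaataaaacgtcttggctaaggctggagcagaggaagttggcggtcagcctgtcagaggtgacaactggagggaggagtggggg

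Ptges2: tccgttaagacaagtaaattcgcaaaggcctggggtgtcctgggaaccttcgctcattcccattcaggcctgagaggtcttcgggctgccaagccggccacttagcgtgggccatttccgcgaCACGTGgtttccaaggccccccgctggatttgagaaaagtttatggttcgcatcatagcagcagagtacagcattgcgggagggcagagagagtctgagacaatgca

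Each window was searched on both strands for 6 motifs: the cAMP response element half-site TGACGT, the E-box CACGTG, the C/EBP palindrome TTGCGCAA, the GC box GGGCGG, the TATA box TATAAA and the CCAAT box. The Ptgs2 window held the C/EBP palindrome with its first base 69 bases before the start, a motif found in 49 of 32851 RefSeq windows (0.149%). It also held ACGTCA, the reverse complement of the half-site, at base 13 counted from the start, overlapping an E-box at base 17. The half-site was in 6.65% of all windows and the E-box in 6.05%. A GC box, found in 33.1% of windows, began 170 bases before the Ptgs2 start. The Ptges2 window held 1 E-box, which began 77 bases before its start, and the Ptgs1 window held none of the 6. TATAAA was in 10.7% of all windows and CCAAT in 31.7%, and neither was in these 3. A match is a run of letters and does not show that a factor binds there.

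Ptgs2 (ENSMUSG00000032487, chromosome 1, 150100031 to 150108227 on mm10, plus strand) was higher with the drug in hippocampus under both behaviours. After CFC it had 105, 98.1, 101 and 99.6 CPM in the HDACi libraries and 51.2, 34.6, 48.2 and 34.2 CPM in the Veh libraries. Without shock it had 98.9, 67.5, 125 and 107 CPM in the HDACi libraries and 42.7, 36.8, 51.2 and 42.2 CPM in the Veh libraries. In both cases the lowest HDACi library lay above the highest Veh library, and the HDACi CFC libraries lay closest together. Group means were 101 ± 3.02 CPM in HDACi CFC, 42.1 ± 8.91 in Veh CFC, 99.7 ± 24.1 in HDACi Context and 43.2 ± 5.93 in Veh Context (SD, n = 4 each). The log2 fold change of HDACi over Veh was 1.33 (SE 0.17, 2.51-fold) with CFC and 1.29 (SE 0.17, 2.44-fold) with Context. Both differences chose the set and are not tested. The difference between them was 0.04 log2 (SE 0.24). Of 10 genes listed for hippocampal excitatory neurons, 2 were called higher with the drug after CFC and 3 with Context (edgeR, adjusted p under 0.05). Beside them, 20.8% and 19.8% of all genes were called in either direction, and nothing is read from these counts. The median log2 fold change of that list was 0.20 after CFC and 0.22 with Context. Other lists had medians of 0.33 and 0.27 (10 endothelial genes), 0.21 and 0.23 (10 mature oligodendrocyte genes) and 0.12 and 0.10 (10 microglia genes). The 10 excitatory neuron genes summed to 2160 to 2632 CPM in HDACi CFC and 1763 to 2311 in Veh CFC. With Context they summed to 2284 to 2745 CPM in HDACi and 1801 to 2238 in Veh, without overlap, and none was at 0. Their part in the Ptgs2 difference was not tested. In bulk tissue, fewer or more cells of a type and less or more RNA per cell cannot be told apart.

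**Figure D1:**
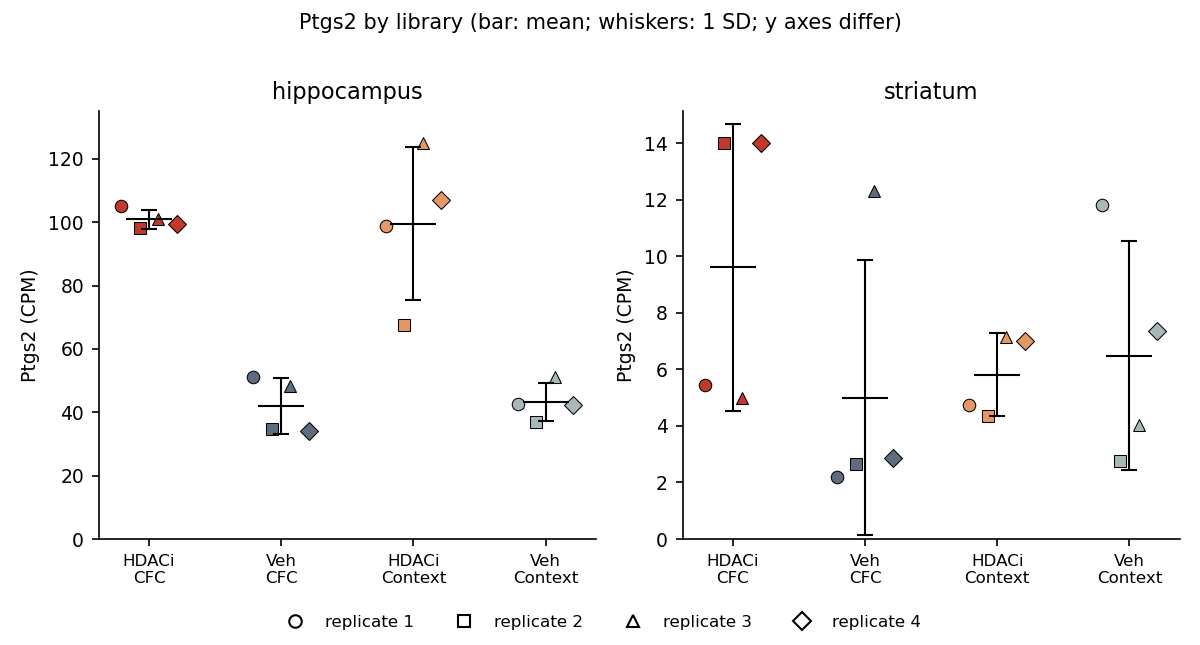
Ptgs2 level in CPM (y axis) in each of the 32 libraries by group (x axis), with hippocampus at left and striatum at right on different y scales. Points are libraries, shaped by replicate number, the horizontal bar is the group mean and the whiskers are 1 SD. In hippocampus every HDACi library, from 67.5 CPM up, lies above every Veh library, at most 51.2 CPM, while in striatum all levels are at 14.0 CPM or less and the groups overlap.

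No difference of Ptgs2 with conditioning was detectable in hippocampus. The log2 fold change of CFC over Context in hippocampus was -0.01 (SE 0.17) under HDACi and -0.05 (SE 0.17) under Veh, with an adjusted p of 1 in both (edgeR quasi-likelihood F test, Benjamini-Hochberg over all genes). The same held for the whole set. In each of the 4 CFC comparisons, in either region and under either injection, and in the striatum interaction of drug and CFC, 0 of 8 members were called at an adjusted p under 0.05. No member reached an unadjusted p under 0.05 with edgeR or with DESeq2 in any of these 5 comparisons. The background share called among all genes was 0.0% in each of them. The known activity genes Fos, Arc and Npas4, read out 1 hour after behaviour, overlapped between CFC and Context libraries in Veh hippocampus. Fos had 7.61 to 17.9 CPM in Veh CFC and 7.48 to 17.2 CPM in Veh Context there. Under HDACi, Fos did not overlap, with 11.5 to 12.4 CPM in hippocampus HDACi CFC and 7.68 to 9.02 CPM in HDACi Context. In striatum it had 10.7 to 17.6 CPM in HDACi CFC and 4.26 to 5.44 CPM in HDACi Context. Arc and Npas4 overlapped under HDACi in both regions. Of 10 neuronal activity genes listed, Fos among them, 0 were called in each of the 4 CFC comparisons. The share of all genes without overlap was not computed for these comparisons, so nothing is read from the Fos ranges.

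Between regions, Ptgs2 was higher in hippocampus than in striatum. In Veh Context mice it had 43.2 ± 5.93 CPM in hippocampus and 6.49 ± 4.04 CPM in striatum (SD, n = 4 each), with no overlap. The difference was 2.71 log2 (SE 0.42, 6.53-fold, adjusted p = 3.56e-06, edgeR quasi-likelihood test) and was called in all 8 fits that left out 1 library of those groups. Striatum Veh Context replicates 1 and 4, with over 100 CPM of Slc17a7, held 11.8 and 7.34 CPM of Ptgs2. Replicates 2 and 3 held 2.75 and 4.04 CPM, a mean of 3.40, so the size of the difference depends on which libraries are kept. Ranked by mean, the 4 hippocampus groups came first, with HDACi CFC and HDACi Context overlapping each other but not the Veh groups, then Veh Context and Veh CFC overlapping each other but not the striatum groups. Neighbours among the striatum groups all overlapped. The hippocampus order of cyclooxygenases was the reverse of that in striatum. Scaled to transcript length, Ptgs2 averaged 22.0 CPM per kb and Ptgs1 3.53 CPM per kb in hippocampus HDACi CFC, against 9.18 and 3.29 CPM per kb in hippocampus Veh CFC. In striatum HDACi CFC the values were 2.10 CPM per kb for Ptgs2 and 3.80 for Ptgs1, against 1.09 and 3.54 in striatum Veh CFC.

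In striatum the Ptgs2 values of the drug groups overlapped. After CFC it had 5.43, 14.0, 5.00 and 14.0 CPM in the HDACi libraries and 2.20, 2.66, 12.3 and 2.85 CPM in the Veh libraries. With Context it had 4.75, 4.34, 7.16 and 7.01 CPM in the HDACi libraries and 11.8, 2.75, 4.04 and 7.34 CPM in the Veh libraries. The 5 highest values of the region were the 5 libraries with over 100 CPM of Slc17a7: they held 7.34 to 14.0 CPM of Ptgs2 and the 11 others 2.20 to 7.16. Over all libraries neither comparison was called, with 1.00 log2 (SE 0.54, adjusted p = 0.196, edgeR) for HDACi CFC over Veh CFC and -0.04 log2 (SE 0.54, adjusted p = 0.969) for HDACi Context over Veh Context. In fits without 1 library the CFC difference was 0.76 to 1.98 log2, with an adjusted p of up to 0.396, and was called in 1 of 8, the fit without Veh CFC replicate 3 (adjusted p = 0.0061). The interaction of drug and CFC was 1.04 log2 (SE 0.76, adjusted p = 1). It was 0.60 to 2.02 log2 in the 16 fits without 1 library and was called in none (edgeR).

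Values without those 5 libraries, an alternative chosen after the values were seen, are given as a description. The libraries left out are also the 5 highest in Ptgs2, and with Context they are 2 Veh libraries and no HDACi library, so the differences that remain are no test. HDACi CFC then had 5.43 and 5.00 CPM against 2.20, 2.66 and 2.85 CPM in Veh CFC, a difference of 1.13 log2 (SE 0.25). HDACi Context kept its 4 libraries, at 4.34 to 7.16 CPM, against 2.75 and 4.04 CPM in Veh Context, a difference of 0.88 log2 (SE 0.24). These smaller fits called 20.4% and 18.8% of all genes. The drug effect in hippocampus minus that in striatum, given as a description, was 0.32 log2 (SE 0.57) with CFC and 1.31 log2 (SE 0.57) with Context over all libraries. It was 0.26 (SE 0.34) and 0.47 (SE 0.32) without the 5 libraries.

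**Figure D2:**
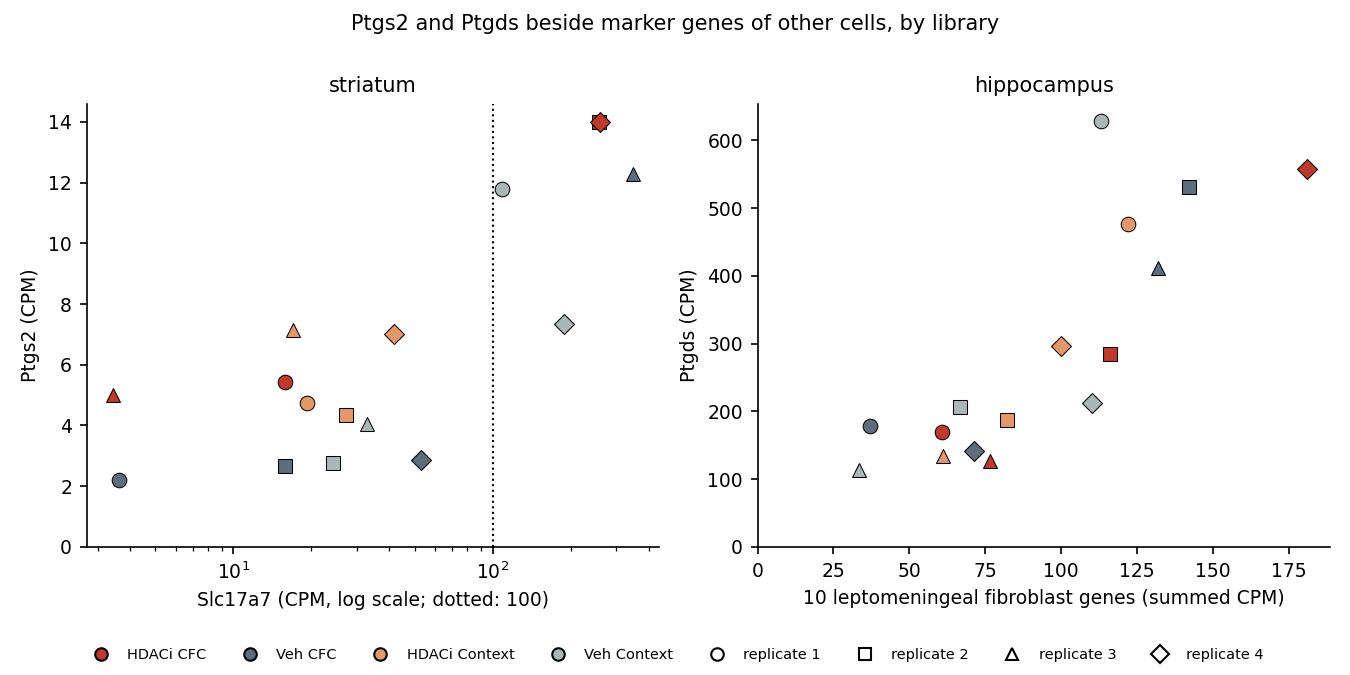
At left, Ptgs2 in CPM (y axis) against Slc17a7 in CPM on a log axis (x axis) in the 16 striatum libraries, and at right, Ptgds in CPM against the summed CPM of 10 leptomeningeal fibroblast genes in the 16 hippocampus libraries, with colour for the group and shape for the replicate number. The 5 striatum libraries right of the dotted line at 100 CPM hold 7.34 to 14.0 CPM of Ptgs2 (HDACi CFC replicates 2 and 4 nearly coincide), and the 3 hippocampus libraries with the most Ptgds, 531 to 628 CPM, hold 113 to 181 CPM of the fibroblast genes.

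The same pattern was seen across the 16 striatum libraries with group means removed. The deviation of Ptgs2 in log2 CPM followed that of 10 hippocampal excitatory neuron genes, of which 8 were high enough to test (Pearson r = 0.78, permutation p = 0.0021, adjusted 0.00927 over 13 relations examined; Spearman rho = 0.80, permutation p = 0.003, adjusted 0.0198). Without the 2 libraries farthest from the median on that list r was 0.78. It was 0.71 among replicates 1 and 2 and 0.81 among replicates 3 and 4. Against 10 medium spiny neuron genes, the striatal projection neuron list, r was -0.68 (permutation p = 0.018, adjusted 0.0476) and rho was -0.69 (permutation p = 0.026, adjusted 0.0554), with r at -0.50 without the 2 farthest libraries. Against 10 neuronal activity genes r was 0.04 (permutation p = 0.94, adjusted 0.938) and rho was -0.09 (permutation p = 0.76, adjusted 0.827). In hippocampus the relation of Ptgs2 to the excitatory list did not pass the adjustment (r = 0.60, permutation p = 0.05, adjusted 0.0806; rho = 0.59, permutation p = 0.049, adjusted 0.0797). Nor did its relation there to the activity genes (r = 0.07, permutation p = 0.81, adjusted 0.881; rho = -0.10, permutation p = 0.76, adjusted 0.827). For the excitatory list the hippocampal r was 0.86 among replicates 1 and 2 and 0.67 among replicates 3 and 4. For the activity genes it was 0.46 and 0.74 in these sets, above the value over all 16 libraries. The values within sets were not tested, so no absence of a relation is read from the low r over all libraries.

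Of 12316 genes ranked in hippocampus, those whose log2 CPM over the 16 libraries was most like Ptgs2 were Kcnj2 (Pearson r = 0.981), an inward rectifier potassium channel gene, Prickle2 (0.976), a planar cell polarity gene, Zfp608 (0.974), Cdc40 (0.972), a splicing factor gene, and Enc1 (0.970), a neuronal actin-binding protein gene. The drug and vehicle groups drive these values, so they describe shape over groups. In striatum the same genes had r with Ptgs2 of 0.269 for Kcnj2, 0.423 for Prickle2, 0.431 for Zfp608, 0.351 for Cdc40 and 0.802 for Enc1. Kcnj2 was the one with the largest drug difference in hippocampus, 1.43 log2 with CFC and 1.65 log2 with Context, against 0.85 and 0.94 log2 in striatum.

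Across the members, the drug differences in hippocampus other than that of Ptgs2 were estimated at under 2-fold. Their SE reached 0.56 log2, for Ptgds, so not all of them are shown to be small. With CFC, the groups of 2 members did not overlap (Ptgs2 higher, Ptges2 lower), as in 23.7% of all genes tested, with 20.8% of all genes called in that comparison. With Context, the groups of 3 did not overlap (Ptgs2 and Ptgs1 higher, Ptger4 lower), as in 24.6% of all genes, with 19.8% called. Nothing is read from these 2 counts, since the contrast chose the set. Ptgs2 alone passed the 2-fold bound by which the set was chosen, at 2.51-fold and 2.44-fold. The member nearest to it was Ptger4, lower by 1.70-fold with Context. In striatum, outside the contrast that chose the set, 1 of 8 members was called with CFC (Ptges2, lower), beside 24.2% of all genes. With Context 2 of 8 were called (Ptges2 lower, Ptgs1 higher), beside 24.8%. DESeq2 gave the same counts. These striatal shares of members were near or below the background.

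**Figure D3:**
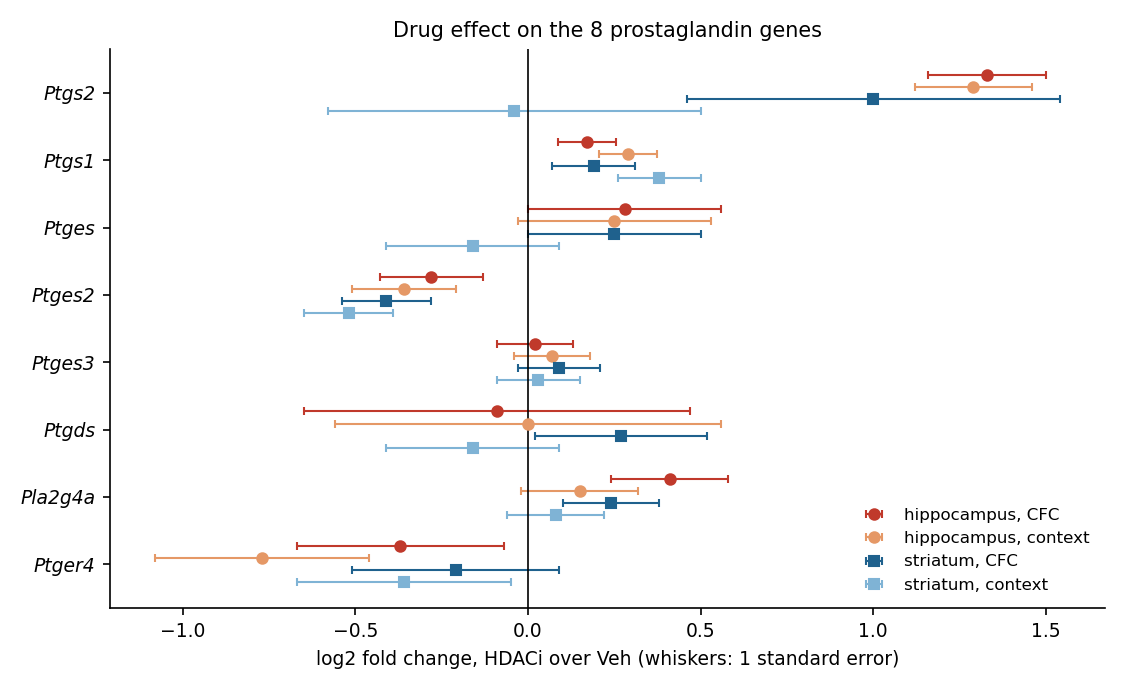
Log2 fold change of HDACi over Veh (x axis) for the 8 members (rows) in hippocampus and striatum after CFC and Context, with whiskers of 1 standard error from the edgeR fit. Ptgs2 stands apart in hippocampus at 1.33 and 1.29, Ptges2 lies below 0 in all 4 comparisons and Ptges3 within 0.09 of 0 in all 4.

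Ptgs1 (ENSMUSG00000047250, chromosome 2, 36230426 to 36252272), the constitutive cyclooxygenase gene, was nearly level across groups, with means from 12.2 to 14.7 CPM. In striatum with Context it had 15.7, 12.7, 15.1 and 14.8 CPM in HDACi libraries and 9.93, 13.9, 13.1 and 11.7 CPM in Veh libraries, and HDACi replicate 2 lay below Veh replicates 2 and 3. The difference was 0.38 log2 (SE 0.12, 1.30-fold, edgeR adjusted p = 0.0327). It was called in 3 of 8 fits without 1 library. The call was lost without Veh Context replicate 1 (0.26 log2, adjusted p = 0.138) or 4 (0.0733), and without HDACi Context replicate 1 (0.0826), 3 (0.0772) or 4 (0.0765). It was also lost when counts were scaled to library size alone (0.26 log2, adjusted p = 0.111) and without the libraries over 100 CPM of Slc17a7 (0.21 log2, adjusted p = 0.235). With CFC the striatal value was 0.19 log2 (SE 0.12, adjusted p = 0.292). In hippocampus Ptgs1 was 0.17 log2 (SE 0.084) with CFC and 0.29 log2 (SE 0.084) with Context, where HDACi libraries ranged from 13.7 to 14.4 CPM and Veh libraries from 11.5 to 12.8. Of 10 microglia genes 1 was called with the drug in striatum after CFC and 0 in the 3 other drug comparisons. With group means removed, r between Ptgs1 and that list was -0.56 in hippocampus (permutation p = 0.033, adjusted 0.0614; rho = -0.59, permutation p = 0.03, adjusted 0.0554) and -0.12 in striatum (permutation p = 0.71, adjusted 0.84; rho = 0.01, permutation p = 0.99, adjusted 0.989). Within replicate sets the hippocampal r was -0.10 among replicates 1 and 2 and 0.11 among replicates 3 and 4. Ptgs1 shares 148 exonic bases with Gm43621 on the opposite strand.

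Among the prostaglandin E synthases, Ptges2, the membrane-associated synthase 2 gene (ENSMUSG00000026820, chromosome 2, 32395896 to 32405772), was lower with the drug in striatum under both behaviours. After CFC it had 12.4, 15.4, 10.7 and 13.1 CPM in HDACi libraries and 20.5, 18.7, 16.2 and 17.2 CPM in Veh libraries. With Context it had 12.4, 12.0, 9.39 and 9.90 CPM in HDACi libraries and 20.0, 18.2, 13.8 and 15.8 CPM in Veh libraries. Neither pair of groups overlapped. Ptges2 fell by 0.41 log2 with CFC (SE 0.13, 1.33-fold, edgeR adjusted p = 0.0266) and fell by 0.52 log2 with Context (SE 0.13, 1.43-fold, adjusted p = 0.00626). The Context call was kept in all 8 fits without 1 library. The CFC call was kept in 4 of 8: it was lost without Veh CFC replicate 1 (adjusted p = 0.0818) and without HDACi CFC replicate 1 (0.0542), 3 (0.0812) or 4 (0.0528). In hippocampus, as a description, HDACi libraries had 11.7 to 16.3 CPM after CFC and 10.1 to 16.6 CPM with Context, against 16.5 to 21.8 and 15.0 to 22.9 CPM in Veh libraries. The log2 fold changes were -0.28 (SE 0.15) with CFC and -0.36 (SE 0.15) with Context. The interaction in striatum was 0.11 log2 (SE 0.18, adjusted p = 1).

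**Figure D4:**
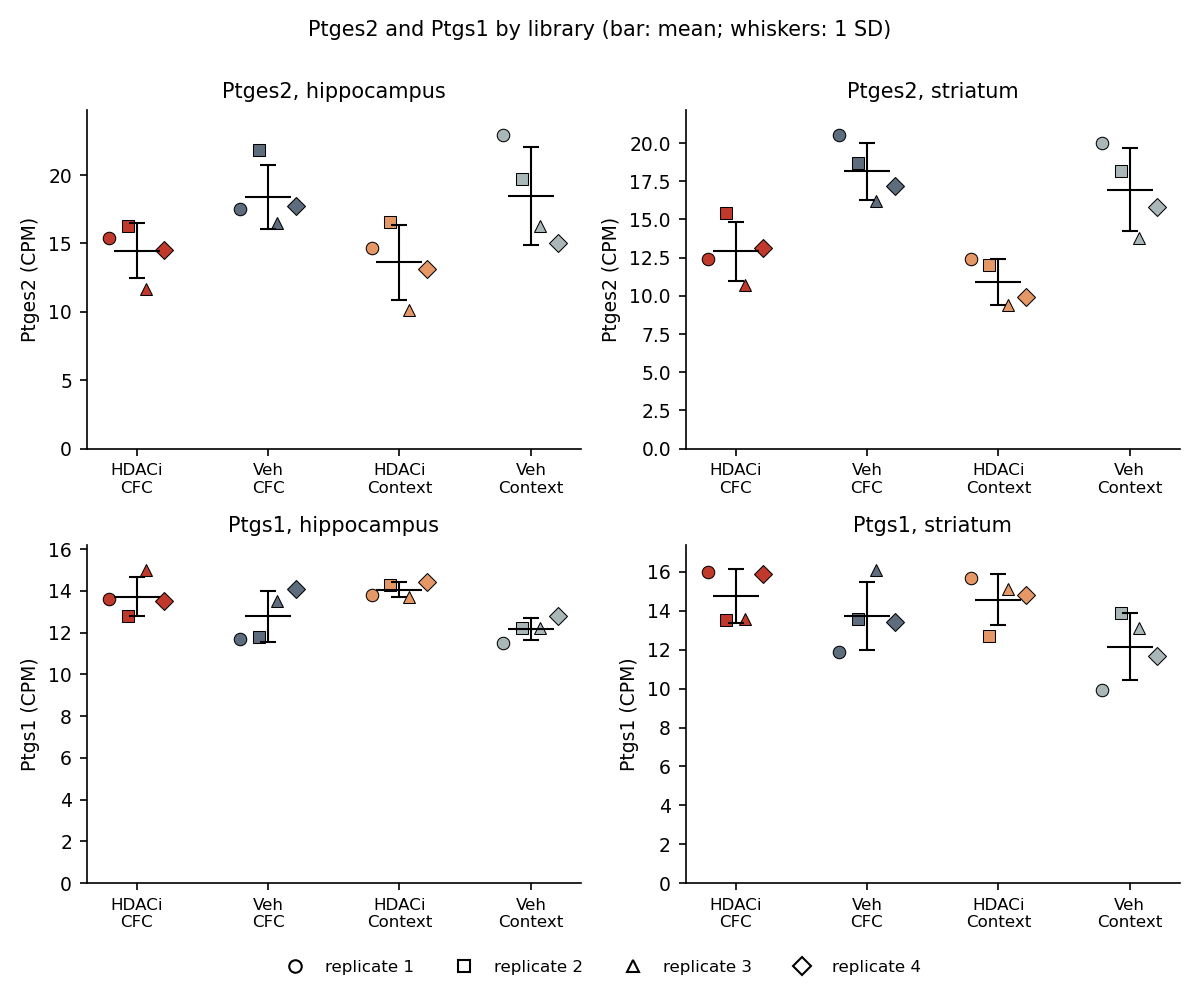
Ptges2 (top) and Ptgs1 (bottom) in CPM (y axis) in each library by group (x axis), hippocampus at left and striatum at right, with points shaped by replicate number, bars for means and whiskers of 1 SD. In striatum all Ptges2 values of HDACi libraries lie below those of the Veh libraries of the same behaviour, while Ptgs1 stays between 9.93 and 16.1 CPM.

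Ptges, the microsomal synthase often induced together with cyclooxygenase-2 in inflammation, did not pass the test in any comparison tested. Its group means were 1.88 to 2.31 CPM in hippocampus and 1.06 to 1.28 CPM in striatum. The drug difference was 0.25 log2 with CFC (SE 0.25, adjusted p = 0.511) and -0.16 log2 with Context (SE 0.25, adjusted p = 0.686) in striatum, and 0.28 and 0.25 log2 (SE 0.28 each) in hippocampus. Hippocampus over striatum in Veh Context was 0.53 log2 (SE 0.27, edgeR adjusted p = 0.122). Ptges3, the cytosolic synthase that is also the Hsp90 cochaperone p23, was nearly level with the drug, at 96.4 ± 13.5 CPM in hippocampus HDACi CFC, 99.2 ± 7.97 in Veh CFC, 97.3 ± 9.89 in HDACi Context and 98.2 ± 8.95 in Veh Context (SD, n = 4 each). Its 4 drug differences were between 0.02 and 0.09 log2, with SE of 0.11 or 0.12. In Veh Context it had 98.2 ± 8.95 CPM in hippocampus and 82.3 ± 9.67 in striatum (0.23 log2, SE 0.11, adjusted p = 0.112). With the replicate number as a block the Ptges3 region difference was called (0.23 log2, edgeR adjusted p = 0.00885), as it was with a term for replicates 1 and 2 against 3 and 4 (0.22 log2, adjusted p = 0.0392). On mm10, Ptges (ENSMUSG00000050737) lies on chromosome 2 from 30889471 to 30929863 on the minus strand and Ptges3 (ENSMUSG00000071072) on chromosome 10 from 128058954 to 128077272 on the plus strand. A processed pseudogene, Ptges3-ps, can share reads with Ptges3.

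Ptgds (ENSMUSG00000015090, chromosome 2, 25466709 to 25470046, minus strand) encodes the lipocalin-type prostaglandin D synthase, known from leptomeninges, choroid plexus and oligodendrocytes. Scaled to length it was the highest member, with group means of 166 to 192 CPM per kb in hippocampus and 59.8 to 81.1 in striatum. Within hippocampus it spread widely: 170, 285, 127 and 558 CPM in HDACi CFC, 179, 531, 412 and 141 in Veh CFC, 476, 188, 134 and 296 in HDACi Context, and 628, 207, 113 and 213 in Veh Context. High and low libraries occurred in all 4 groups. The drug difference was -0.09 log2 with CFC (SE 0.56) and 0.00 with Context (SE 0.56). In striatum it was 0.27 log2 with CFC (SE 0.25, adjusted p = 0.475) and -0.16 log2 with Context (SE 0.25, adjusted p = 0.7). Large standard errors leave room for sizeable differences in hippocampus.

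The hippocampal spread of Ptgds ran with leptomeningeal fibroblast genes such as Col1a2 and Slc6a13. The 10 genes of that list summed to 60.7 to 181 CPM in HDACi CFC, 37.1 to 142 in Veh CFC, 61.1 to 122 in HDACi Context and 33.4 to 113 in Veh Context, and none was at 0 in any of these libraries. With group means removed, r between Ptgds and the list was 0.95 over 16 libraries (permutation p = 6e-05, adjusted 0.00078) and rho was 0.93 (permutation p = 0.00019, adjusted 0.00247). It was 0.93 without the 2 farthest libraries, 0.97 among replicates 1 and 2 and 0.98 among replicates 3 and 4. For 10 choroid plexus genes in hippocampus r was 0.61 (permutation p = 0.0092, adjusted 0.0299), and rho was 0.64 (permutation p = 0.014, adjusted 0.0461). That r was 0.56 without the 2 farthest libraries, and 0.46 and 0.81 within the replicate sets. For those in striatum, of which 7 were tested, r was 0.73 (permutation p = 0.0015, adjusted 0.00927) and rho was 0.70 (permutation p = 0.0055, adjusted 0.024), with r at 0.75 without the 2 farthest libraries and at 0.71 and 0.40 within the replicate sets. Choroid plexus genes were low in striatum: the 10 listed summed to 20.4 to 53.4 CPM, with up to 2 at 0 in a library. For 10 mature oligodendrocyte genes r was 0.68 in striatum (permutation p = 0.026, adjusted 0.0566) and rho was 0.67 (permutation p = 0.018, adjusted 0.0461), with r at 0.42 without the 2 farthest libraries. In hippocampus r was -0.37 (permutation p = 0.22, adjusted 0.285) and rho was -0.34 (permutation p = 0.26, adjusted 0.335). For the leptomeningeal list in striatum r was 0.50 (permutation p = 0.12, adjusted 0.167) and rho was 0.48 (permutation p = 0.11, adjusted 0.163).

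In Veh Context mice 4 of 8 members differed between regions, 3 higher and 1 lower in hippocampus, beside 44.1% of all genes called. Beside Ptgs2, Ptgds was higher by 1.25 log2 (SE 0.47, edgeR adjusted p = 0.0312), at 290 ± 230 CPM in hippocampus and 119 ± 46.7 CPM in striatum (SD, n = 4 each). That call was kept in 4 of 8 fits without 1 library. Without hippocampus Veh Context replicate 1, the library at 628 CPM, the Ptgds difference was 0.56 log2 (adjusted p = 0.331), and without striatum Veh Context replicate 2, 3 or 4 the adjusted p was 0.0606, 0.0766 or 0.105. All 10 leptomeningeal fibroblast genes were called higher in hippocampus in this comparison. The part of that difference in the result for Ptgds was not tested.

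Pla2g4a, the cytosolic phospholipase that frees arachidonic acid, was lower in hippocampus. In Veh Context it had 3.57, 3.11, 2.43 and 3.44 CPM in hippocampus and 4.52, 3.87, 5.04 and 4.22 CPM in striatum, without overlap (-0.52 log2, SE 0.15, edgeR adjusted p = 0.00656, called in all 8 fits without 1 library). Its drug difference was 0.41 log2 with CFC (SE 0.17) and 0.15 log2 with Context (SE 0.17) in hippocampus. In striatum it was 0.24 log2 with CFC (SE 0.14, adjusted p = 0.244) and 0.08 log2 with Context (SE 0.14, adjusted p = 0.715). The gene (ENSMUSG00000056220) lies on chromosome 1, from 149829618 to 149961290 on the minus strand.

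Ptger4 (ENSMUSG00000039942, chromosome 15, 5206661 to 5244187, minus strand), the EP4 receptor gene for prostaglandin E2, was the lowest member, at 0.0489 to 0.124 CPM per kb by group mean. In Veh Context it had 0.880, 0.667, 1.09 and 0.656 CPM in hippocampus and 0.584, 0.383, 0.481 and 0.357 CPM in striatum, without overlap (0.84 log2, SE 0.29, 1.79-fold, edgeR adjusted p = 0.0195). The call was lost without hippocampus Veh Context replicate 3 (adjusted p = 0.089) and without striatum Veh Context replicate 2 (0.056) or 4 (0.083). With the drug, HDACi Context libraries had 0.405 to 0.511 CPM in hippocampus and Veh Context libraries 0.656 to 1.09 CPM, a difference of -0.77 log2 (SE 0.31), while with CFC it was -0.37 log2 (SE 0.30). In striatum the differences were -0.21 log2 with CFC (SE 0.30, adjusted p = 0.666) and -0.36 log2 with Context (SE 0.31, adjusted p = 0.441). Ptger4 shares 82 exonic bases with Ttc33 and 1015 with the pseudogene Gm15937, both on the opposite strand.

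Around the 8 members, 55 further genes of eicosanoid metabolism were followed in 5 lists, for arachidonate release, other prostanoid synthases, other prostanoid receptors, prostanoid transport and breakdown, and the lipoxygenase and leukotriene branch. Of these, 43 passed the filter on low counts in hippocampus and 39 in striatum, and 11 were in none of the fits. With the drug, 7 were called higher and 3 lower in hippocampus after CFC, 5 higher and 3 lower in hippocampus with Context, 6 higher and 3 lower in striatum after CFC, and 5 higher and 4 lower in striatum with Context. That is 10 and 8 of 43 genes in hippocampus, beside 20.8% and 19.8% of all genes called, and 9 and 9 of 39 in striatum, beside 24.2% and 24.8%. These shares were near the background. The median log2 fold change of the lists together was 0.11, 0.10, 0.09 and 0.08 in that order, against 0.01, 0.01, 0.03 and 0.03 over all genes. None was called in any CFC comparison or in the striatum interaction with edgeR.

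In the lists, 4 of the 38 genes tested in both regions (10.5%) were called in all 4 drug comparisons, beside 11.1% of all genes, a share near the background. The labels do not say which hippocampus and striatum libraries came from the same mice. Hpgds, the hematopoietic prostaglandin D synthase known from microglia, was higher, by 1.47-fold in hippocampus under both behaviours, 1.60-fold in striatum after CFC and 1.56-fold in striatum with Context (edgeR adjusted p = 0.00409, 0.00426, 7.94e-05 and 0.000118). In hippocampus it averaged 10.1 ± 1.04 CPM in HDACi CFC, 7.15 ± 0.764 in Veh CFC, 11.2 ± 1.02 in HDACi Context and 8.05 ± 1.21 in Veh Context (SD, n = 4 each). Cysltr2, a cysteinyl leukotriene receptor gene, was higher by 2.75-fold and 2.74-fold in hippocampus with CFC and Context and by 2.67-fold and 2.38-fold in striatum (adjusted p = 0.00125, 0.00148, 0.00176 and 0.00339). Its levels were low, at 1.86 ± 0.457 CPM in hippocampus HDACi CFC and 0.715 ± 0.299 CPM in Veh CFC. Both genes stayed called in every fit without 1 library.

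Lower with the drug were a pair of phospholipase genes. Pla2g12a, a secreted phospholipase A2, had 9.23 ± 1.15 CPM in hippocampus HDACi CFC, 15.2 ± 1.43 in Veh CFC, 8.17 ± 0.431 in HDACi Context and 14.4 ± 0.422 in Veh Context (SD, n = 4 each). In striatum it had 8.56 ± 0.251 CPM in HDACi CFC, 15.6 ± 1.35 in Veh CFC, 8.91 ± 0.628 in HDACi Context and 15.5 ± 0.593 in Veh Context. None of these pairs overlapped. Pla2g12a fell by 0.66 and 0.74 log2 in hippocampus with CFC and Context and fell by 0.78 and 0.68 log2 in striatum (edgeR adjusted p = 6.47e-05, 2.27e-05, 3.22e-06 and 9.86e-06), and each call was kept without any 1 library. Pla2g15, the lysosomal phospholipase A2, fell by 0.29 and 0.42 log2 in hippocampus and fell by 0.35 and 0.40 log2 in striatum (adjusted p = 0.0439, 0.00567, 0.00861 and 0.0037). The hippocampus CFC call of Pla2g15 was kept in 2 of 8 fits without 1 library, where the adjusted p reached 0.167, and it missed the threshold with DESeq2 (adjusted p = 0.0518).

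**Figure D5:**
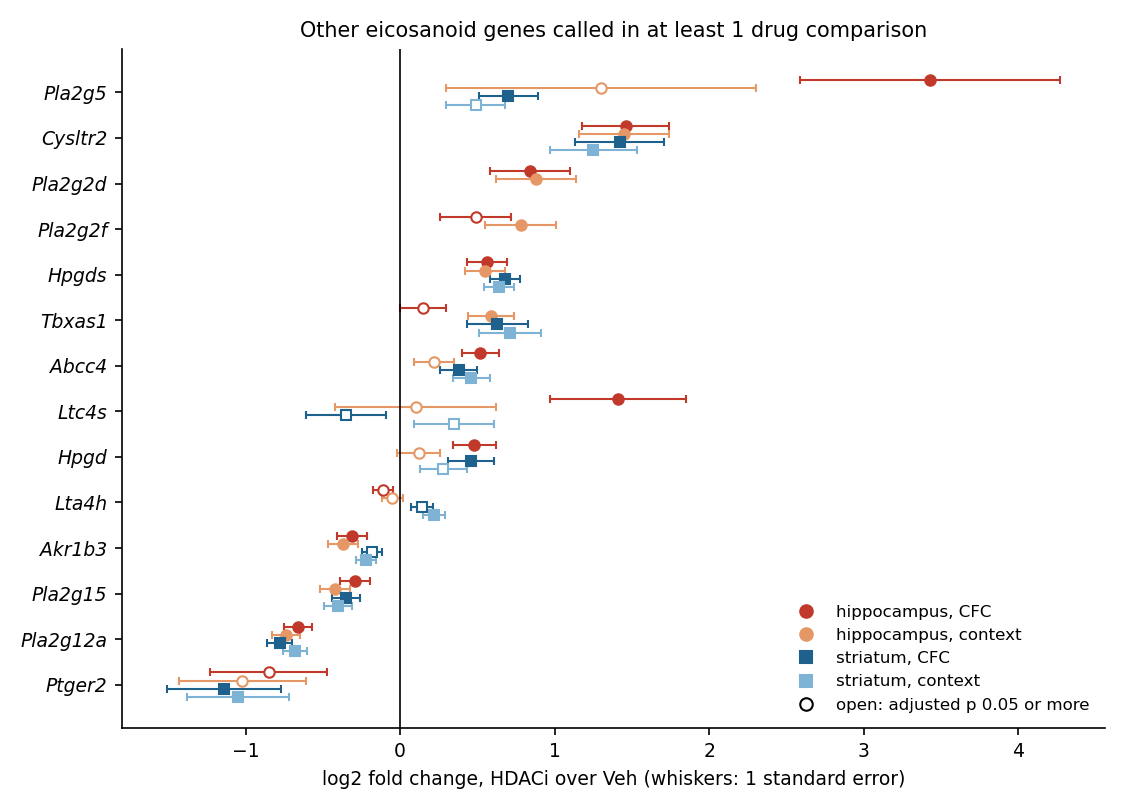
Log2 fold change of HDACi over Veh (x axis) for the 14 further eicosanoid genes called in at least 1 of the 4 drug comparisons (rows, ordered by mean), with whiskers of 1 standard error and open symbols where the adjusted p was 0.05 or more. Hpgds and Cysltr2 lie above 0, and Pla2g12a and Pla2g15 below it, with filled symbols in all 4, while Pla2g5 reaches 3.43 in hippocampus after CFC alone.

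Other synthases and receptors were called in part of the comparisons. Tbxas1, the thromboxane A synthase gene, was higher in hippocampus with Context (0.59 log2, edgeR adjusted p = 0.00975) and in striatum with CFC (0.63 log2, adjusted p = 0.0316) and Context (0.71 log2, adjusted p = 0.0143). Its striatal calls were kept in 3 of 8 and 6 of 8 fits without 1 library. Akr1b3, the aldose reductase gene, whose product can also form prostaglandin F2alpha, fell by 0.31 log2 in hippocampus with CFC (adjusted p = 0.0314), fell by 0.37 log2 with Context (adjusted p = 0.0112) and fell by 0.22 log2 in striatum with Context (adjusted p = 0.0198). Those calls of Akr1b3 were kept in 3 of 8, 8 of 8 and 7 of 8 fits without 1 library, and the adjusted p of the hippocampus CFC call reached 0.0987. Ptger2, the EP2 receptor gene, had 0.314 ± 0.176 CPM in striatum HDACi CFC, 0.733 ± 0.168 in Veh CFC, 0.446 ± 0.192 in HDACi Context and 1.01 ± 0.256 in Veh Context (SD, n = 4 each). The Ptger2 differences of -1.14 log2 (adjusted p = 0.0324) and -1.05 log2 (adjusted p = 0.0289) were kept in 4 of 8 and 5 of 8 fits without 1 library. From the transport and breakdown list, Hpgd was called higher after CFC in both regions. It had 5.51 ± 0.552 CPM in hippocampus HDACi CFC and 4.11 ± 0.652 in Veh CFC. In striatum it had 5.03 ± 1.07 CPM in HDACi CFC and 3.90 ± 0.215 in Veh CFC. The Hpgd calls were kept in 6 of 8 and 3 of 8 fits without 1 library.

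In hippocampus after CFC, 3 calls were lost without the 2 libraries rich in choroid plexus genes. That fit called 12.6% of all genes, in place of 20.8%. Pla2g5, a secreted phospholipase A2 gene, had 0.550, 6.75, 0.222 and 7.49 CPM in HDACi CFC and 0.273 to 0.409 CPM in Veh CFC. Ltc4s, the leukotriene C4 synthase gene, had 0.782, 2.60, 0.508 and 3.11 CPM in HDACi CFC and 0.424 to 0.992 CPM in Veh CFC. In both genes replicates 2 and 4 of HDACi CFC were high and the other two lay near the Veh range. Without those libraries Pla2g5 was 0.22 log2 (edgeR adjusted p = 0.893) in place of 3.43 (adjusted p = 0.00726), and Ltc4s was 0.01 log2 (adjusted p = 0.993) in place of 1.41 (adjusted p = 0.031). Abcc4, a transporter gene whose product exports prostaglandins, was 0.28 log2 (adjusted p = 0.191) in place of 0.52 (adjusted p = 0.00638). The hippocampus CFC call of Abcc4 was kept in all 8 fits without 1 library. In striatum Abcc4 was also called higher, kept in 8 of 8 such fits with Context and 1 of 8 with CFC. Pla2g5 was called higher in striatum after CFC, at 2.35 ± 0.405 CPM in HDACi and 1.53 ± 0.249 CPM in Veh. That call was kept in all 8 fits without 1 library. The choroid plexus genes summed to 38.9 to 6222 CPM in HDACi CFC and 41.7 to 89.7 CPM in Veh CFC, and all 10 were called higher. Ptgs2 in the same comparison was 1.37 log2 (SE 0.21) without those 2 libraries.

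Between regions in Veh Context, 14 of the 44 listed genes tested were called higher and 8 lower in hippocampus, beside 44.1% of all genes called. Slco2a1, the prostaglandin transporter gene, had 7.38 ± 1.05 CPM in hippocampus and 0.309 ± 0.111 CPM in striatum (SD, n = 4 each; 23.0-fold, edgeR adjusted p = 1.09e-13). Faah, the fatty acid amide hydrolase gene whose product frees arachidonic acid from anandamide, had 148 ± 17.9 and 19.1 ± 4.64 CPM (7.58-fold, adjusted p = 1.67e-11). Ptgr1, a prostaglandin reductase gene, was higher by 5.87-fold (adjusted p = 1.01e-11) and the lipoxygenase gene Alox12b by 17.5-fold (adjusted p = 1.05e-07). The secreted phospholipase gene Pla2g2f had 531 counts over the 4 hippocampus libraries and 0 over the 4 striatum libraries, which is at least 184-fold higher when the striatum total is set to 3 counts over the group. Lower in hippocampus were the prostaglandin E2 receptor genes Ptger1, at 0.726 ± 0.201 CPM against 2.74 ± 0.766 CPM in striatum (-1.94 log2, adjusted p = 1.93e-06), and Ptger2, at 0.363 ± 0.109 against 1.01 ± 0.256 CPM (-1.50 log2, adjusted p = 0.000446). Ptger4 was thus the other way round from Ptger1 and Ptger2. Ptger3 was higher by 0.71 log2 (adjusted p = 0.0374), a call kept in 2 of 8 fits without 1 library.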

How the data were processed

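Polyadenylated RNA was sequenced as stranded libraries in paired reads of 100 bases, per the labels' protocols. The authors deposited 1 table of raw read counts per Ensembl gene for 32 libraries. Tools listed in the submitters' processing notes were bcl2fastq (version 2.20.0), STAR (version 2.6) and DESeq2, with the mm10 build. How reads were counted, and whether by strand, is not stated, so genes that overlap another are uncertain. Symbols, positions and lengths came from GENCODE M21. CPM is the deposited count per 1000000 counts of the library, and per kb divides it by union exon length.

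Each region's 16 libraries were fitted in R 4.3.3 with edgeR 4.0.16 (4 group means, TMM, filterByExpr, quasi-likelihood F test, two-sided). Region contrasts used all 32. Adjusted p is Benjamini-Hochberg over all genes tested, called under 0.05. All 8 members passed the filter. The fits were tested on simulated data. Relations used deviations from group means in TMM-scaled log2 CPM (prior count 2) and 100000 permutations, two-sided. Alternatives covered scaling, DESeq2 1.42.0, the filter, a replicate block, replicate subsets, offsets for GC content and length, and leaving out libraries. The SE is the absolute log2 fold change over the square root of F, with spread shared over all groups of the fit. It does not measure the spread of any single group. The SD reflects spread between mice of a group, and cage was shared.

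The members, lists and tests were chosen with earlier results of these data known. Genes beyond the members were named from the up to 3 per list, direction and comparison with the smallest adjusted p, plus the 5 most like Ptgs2 in hippocampus. Not all of the former are described: drug calls of Lta4h, Pla2g2d and Pla2g2f and some region calls are left out. Other genes named were chosen after their values were seen. Same-numbered libraries are not tied to a mouse or batch by the labels. Correlations of same-numbered deviations exceeded 0.1 in all 4 pairs in 1 of 8 comparisons within a region (hippocampus HDACi Context with Veh Context, 0.20 to 0.42). Replicates 1 and 2 did differ from 3 and 4: hippocampal Slc17a7 had 952 to 1105 CPM in the former and 752 to 941 in the latter. A term for that split called 28.2% and 27.9% of all genes in hippocampus after CFC and Context, in place of 20.8% and 19.8%. In striatum it called 30.6% and 31.0%, in place of 24.2% and 24.8%. The labels name no source of the split. The fits carry no block for the number; the block is an alternative, given beside a result where it changes the call.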

Additional observations from a re-analysis of the deposited data

Results flagged for a closer look

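In 165 groups of 4 libraries examined, 14 had 1 library far from the other three by Dixon's criterion, and chance flags about 1 in 20 groups. Among the members, Ptgs2 had 12.3 CPM in striatum Veh CFC replicate 3, against 2.20 to 2.85 in the rest of that group, and this library also held 348 CPM of Slc17a7. The part of the Slc17a7 difference in that value was not tested. Ptges3 had 116 CPM in hippocampus HDACi CFC replicate 3, against 87.5 to 91.5. Ptger4 had 0.921 CPM in the same library, against 0.405 to 0.487. Ptgds had 139 CPM in striatum HDACi Context replicate 1, against 81.9 to 91.0.

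Among the other listed genes, Hpgds had 12.7 CPM in hippocampus HDACi Context replicate 4, against 10.5 to 10.8, and 9.99 CPM in striatum Veh CFC replicate 3, against 9.45 to 9.47. Tbxas1 had 1.74 CPM in hippocampus Veh Context replicate 2, against 2.68 to 2.82, and 3.54 CPM in striatum Veh Context replicate 4, against 2.18 to 2.36. Akr1b3 had 25.3 CPM in striatum HDACi Context replicate 1, against 24.1 to 24.2. Pla2g2d had 0.877 CPM in hippocampus HDACi Context replicate 2, against 1.43 to 1.54. Abcc4 had 12.9 CPM in striatum Veh CFC replicate 3, against 14.5 to 14.7, and 15.3 CPM in striatum Veh Context replicate 2, against 13.2 to 13.5. Ptger1 had 0.426 CPM in hippocampus Veh Context replicate 4, against 0.794 to 0.852. Zadh2 had 30.0 CPM in striatum Veh Context replicate 1, against 36.9 to 37.2.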

How the results depend on the processing

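Of the 8 members, the number called in striatum after CFC was 1. It was 0 with only replicates 1 and 2 or only replicates 3 and 4, 2 without the striatum libraries over 100 CPM of Slc17a7 (which are also the 5 highest in Ptgs2) and 2 without the libraries that stood apart, and 0 to 2 without 1 library. Among all genes 24.2% were called in the main fit, and 7.67% and 12.6% with those replicate sets. Without the Slc17a7-rich libraries the share was 20.4%, and without the libraries that stood apart 23.5%. The number called in striatum with Context was 2. It was 1 with library size scaling, without a filter on low counts, and with only replicates 1 and 2 or only 3 and 4, and 1 to 2 without 1 library. Among all genes the main fit called 24.8%, library size scaling 27.7%, the unfiltered fit 11.5%, and the replicate sets 8.32% and 11.6%. The number called between regions was 4. It was 1 with only replicates 1 and 2, 2 with only replicates 3 and 4, 2 without the Slc17a7-rich libraries, and 2 to 4 without 1 library. The shares of all genes were 44.1% in the main fit, 32.7% and 32.6% with the replicate sets, and 37.9% without the Slc17a7-rich libraries. Ptgs2 in striatum with Context was 0.88 log2 without the Slc17a7-rich libraries, in place of -0.04, and the cause was not tested. The 5 CFC and interaction counts stayed at 0 under every alternative run.

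With the replicate block, the numbers called were 1 and 2 in striatum after CFC and Context, and Ptgs2 in hippocampus was 1.35 log2 with CFC and 1.27 log2 with Context. The block ended no call of a named gene and added Ptges3 to the region calls (0.23 log2, adjusted p = 0.00885). Without 1 library the hippocampal drug difference of Ptgs2 was 1.24 to 1.44 log2 with CFC and 1.15 to 1.44 log2 with Context. With 4 libraries a group, differences of the size of a standard error were not detectable.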
